A study of Mus musculus with 2 samples.

Results

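Epithelial-mesenchymal transition (EMT) transcription factors were followed here across the cell classes of mouse omental tumors. The 7 genes were taken by symbol from the gene table of the deposited matrices, which lists 32285 genes: Zeb1, Zeb2, Snai1, Snai2 (also called Slug), Twist1, Twist2 and Prrx1. All 7 had UMIs (unique molecular identifiers, 1 per captured RNA molecule) in both single-cell libraries. The KPCA_FSTKO library came from KPCA.FSTKO cells, mouse fallopian tube epithelial cancer cells in which Fst, the gene of follistatin, was deleted. The KPCA_FSTKO_hFSTL3 library came from KPCA.FSTKO_hFSTL3 cells, which carry the same Fst deletion and in addition a stably transfected plasmid for human FSTL3, and which are 1 clone picked for FSTL3 secretion. The cells were grafted into the peritoneum of female C57BL/6J mice 12 to 16 weeks old, which keep their own Fst, and omental tumors were taken on day 10. Each library pooled 4 tumors, so that there was 1 library per genotype, no replicate and no test of any difference. All intervals below are 95% intervals for counting error alone. They do not cover variation between mice, and cells of 1 library are not replicates.

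These proteins switch epithelial cells toward a mesenchymal state. The zinc-finger factors Zeb1, Zeb2, Snai1 and Snai2 bind E-box sequences and repress epithelial genes such as Cdh1, which encodes E-cadherin. Twist1 and Twist2 are basic helix-loop-helix proteins that act as dimers with E proteins and are held back by Id proteins, and Prrx1 is a homeobox factor of embryonic and adult mesenchyme. Several of them have settled roles outside carcinoma cells, such as Zeb2 in macrophages and other leukocytes and Prrx1 in fibroblasts, so their RNA in a whole tumor can come from many cells.

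The genes lie apart in the GRCm38 genome. Zeb1 spans chr18:5591860-5775467 on the plus strand and Zeb2 spans chr2:44983632-45117395 on the minus strand, lengths of 184 and 134 kb. Snai1 lies at chr2:167538195-167542814 (plus strand), Snai2 at chr16:14705852-14709385 (plus), Twist1 at chr12:33957671-33959829 (plus), Twist2 at chr1:91801461-91848028 (plus) and Prrx1 at chr1:163245119-163313710 (minus). Twist1, the shortest, spans 2.16 kb. The counts were not corrected for gene length, so that each gene is compared with itself across classes and no level is ranked between genes.

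The filters of the study's methods (mitochondrial UMIs below 20%, gene number above 200 and below 8000) left 6777 of 7582 in KPCA_FSTKO and 4041 of 4244 in KPCA_FSTKO_hFSTL3. A kept barcode was assigned to a class when at least 4 of the 12 markers of that class alone had at least 2 UMIs each, and none of the 7 genes was a marker. The gates gave 3439 cancer, 409 stromal, 63 endothelial and 1056 immune barcodes in KPCA_FSTKO, with median depths of 28110, 16083, 6620 and 11744 UMIs. In KPCA_FSTKO_hFSTL3 they gave 524, 111, 14 and 182, with median depths of 10135.5, 13805, 10806 and 16440.5. Levels of gate markers describe the classes and do not check them, since the gate sorts barcodes by these genes. In KPCA_FSTKO, the gate marker Hmga2 stood at 1692 CPM (UMIs of the gene per 1000000 UMIs of the class) in cancer-gated cells. The gate markers Col1a1 and Cdh5 stood at 5281 CPM in stromal-gated cells and at 1320 CPM in endothelial-gated cells. The leading genes by fold over the other classes of that library included Krt13, Wfdc2 and Krt7 in cancer-gated, Calb2, Svep1 and Sfrp2 in stromal-gated, Cldn5 and Tie1 in endothelial-gated, and Mcpt2, Ccr2 and Cybb in immune-gated cells. Of these leading genes, Wfdc2, Krt7, Cldn5 and Tie1 are gate markers too. The KPCA_FSTKO_hFSTL3 library stood apart. There 2306 barcodes (57.1%) passed the threshold of more than 1 class, against 442 (6.52%) in KPCA_FSTKO, the median mitochondrial share was 10.7% against 3.54%, and acinar pancreas genes made up a median of 0.959% of UMIs against 0.00268%. Such barcodes were left out of all classes, and every KPCA_FSTKO_hFSTL3 value rests on the 831 barcodes (20.6%) of a single class. The libraries shared 12 barcodes, of which 1 was gated in both. Fst itself still had UMIs in cancer-gated cells, 5.13 CPM in KPCA_FSTKO and 9.58 in KPCA_FSTKO_hFSTL3, against 112.6 and 144.7 in stromal-gated cells. A 3′ tag outside the deleted part does not check the deletion, and human FSTL3 is not a gene of the mouse reference.

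The classes used the 7 genes differently. Levels are in CPM of the class. In both libraries Zeb1 was highest in endothelial-gated cells, Zeb2 in immune-gated cells, Snai1 and Prrx1 in stromal-gated cells, and Twist1, Twist2 and Snai2 in cancer-gated cells. For Snai2 the endothelial interval held the cancer-gated level in both libraries. It was 1.00 to 14.2 CPM in KPCA_FSTKO and 3.31 to 46.9 CPM in KPCA_FSTKO_hFSTL3, from 3 UMIs each. A bulk measurement of such a tumor could not tell fewer cells of a class from less RNA per cell.

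**Figure D1:**
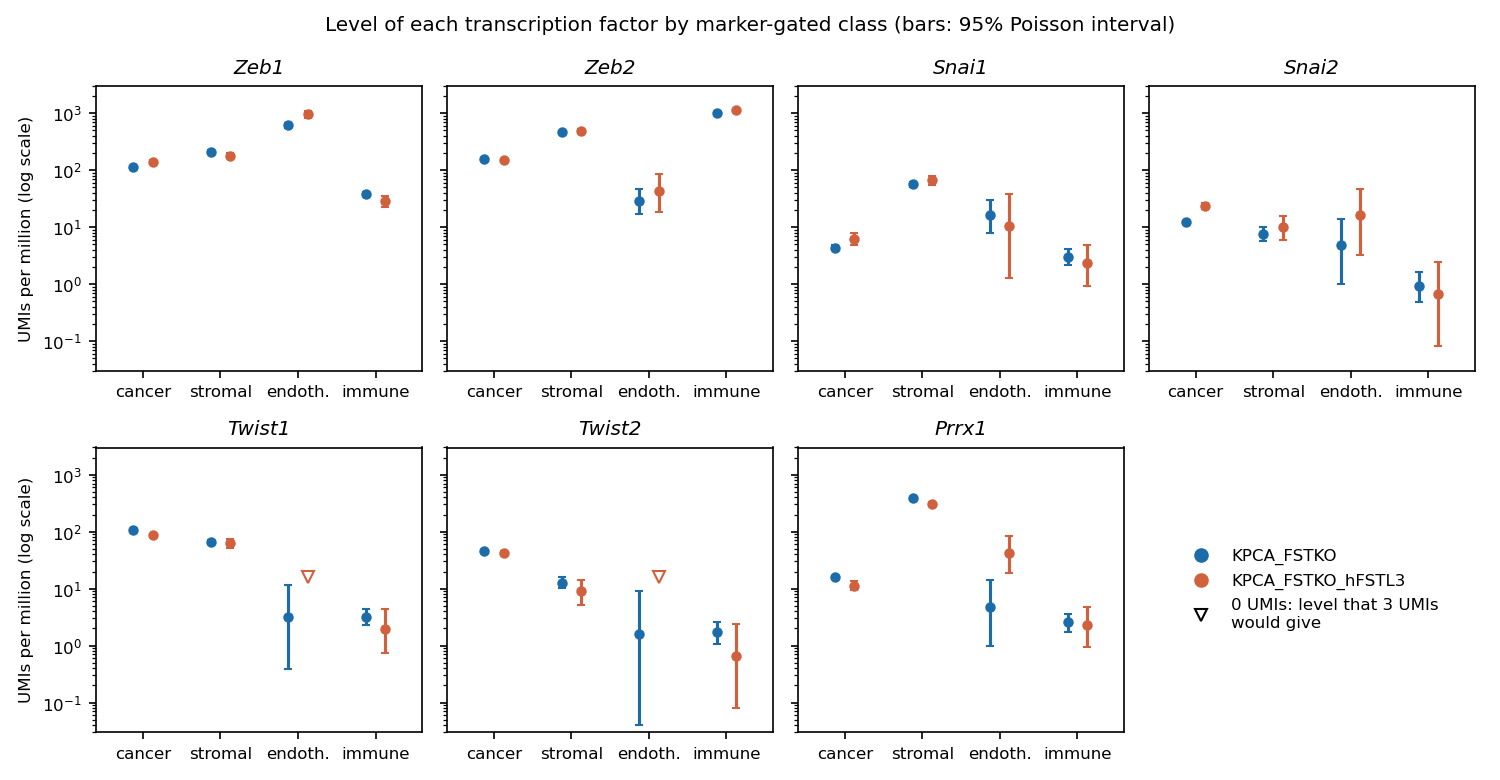
Level of each gene (CPM, log scale) in cancer-, stromal-, endothelial- and immune-gated cells of both libraries, with bars for the 95% Poisson interval and open triangles for the level that 3 UMIs would give where none was counted. Zeb1 peaks in endothelial-gated cells, Zeb2 in immune-gated cells and Prrx1 in stromal-gated cells in both libraries, while Twist1 and Twist2 are highest in cancer-gated cells.

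Zeb1 stood at 114.7 CPM in cancer-gated cells of KPCA_FSTKO (112.6 to 116.8, 11850 UMIs) and at 141.1 in those of KPCA_FSTKO_hFSTL3. In endothelial-gated cells it stood at 612.5 (552.4 to 677.4) and 951.2 CPM, 5.34-fold (4.81 to 5.92) and 6.74-fold (5.74 to 7.87) above cancer-gated cells. In stromal-gated cells the levels were 211.8 and 179.4 CPM, ratios to cancer-gated cells of 1.85 (1.75 to 1.95) and 1.27. These ratios depended on the gate. With at most 1 marker of every other class, an alternative chosen after seeing the data, their log2 values rose from 0.885 to 1.54 and from 0.346 to 0.943. The first is then past 2-fold. The endothelial level thus exceeded the cancer and stromal levels in either library by more than counting error. Immune-gated cells had the lowest Zeb1, 38.5 and 28.3 CPM, 2.98-fold and 4.99-fold below cancer-gated cells.

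Zeb2 had the opposite order at the ends. It stood at 1016.6 CPM in immune-gated cells of KPCA_FSTKO (999.2 to 1034, 13057 UMIs) and at 1123.6 in those of KPCA_FSTKO_hFSTL3. Cancer-gated cells had 160.0 and 152.8 CPM, so that immune-gated cells were 6.35-fold (6.21 to 6.50) and 7.35-fold (6.94 to 7.79) higher. Stromal-gated cells lay between them at 467.6 and 488.8 CPM, 2.92-fold (2.81 to 3.04) and 3.20-fold (2.95 to 3.47) above cancer-gated cells. In endothelial-gated cells, where Zeb1 peaked, Zeb2 had 18 UMIs in all in KPCA_FSTKO (29.1 CPM, 17.2 to 46.0) and 8 in KPCA_FSTKO_hFSTL3 (42.8 CPM). The endothelial level was 5.50-fold below that of cancer-gated cells in KPCA_FSTKO.

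Prrx1 and Snai1 were stromal in both libraries. Prrx1 stood at 394.5 CPM (379.7 to 409.8) in stromal-gated cells of KPCA_FSTKO against 15.8 in cancer-gated cells, a ratio of 24.9 (23.4 to 26.5), and at 311.5 against 11.3 CPM in KPCA_FSTKO_hFSTL3, a ratio of 27.5 (22.7 to 33.5). Snai1 stood at 56.3 against 4.39 CPM in KPCA_FSTKO, a ratio of 12.8 (11.2 to 14.7), and at 66.1 against 6.18 in KPCA_FSTKO_hFSTL3, a ratio of 10.7 (7.93 to 14.5). With the gates used here, no interval reached below 7.93-fold in either library. With barcodes of several lists put into the class with the largest share of its list, the KPCA_FSTKO_hFSTL3 log2 ratios fell. Prrx1 went from 4.78 to 2.73 and Snai1 from 3.42 to 1.76. With at most 1 marker of every other class, an alternative chosen after seeing the data, they rose to 5.57 and 4.28.

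The Twist genes and Snai2 were on the cancer side. Twist1 stood at 106.5 CPM in cancer-gated and 65.8 in stromal-gated cells of KPCA_FSTKO, a stromal-to-cancer ratio of 0.618 (0.561 to 0.680), and at 86.8 and 62.9 CPM in KPCA_FSTKO_hFSTL3. Twist2 had a wider gap, 46.6 and 12.7 CPM in KPCA_FSTKO, a ratio of 0.273 (0.218 to 0.338), and 42.7 and 8.92 CPM in KPCA_FSTKO_hFSTL3, a ratio of 0.209 (0.121 to 0.338). Snai2 stood at 12.3 and 7.71 CPM in KPCA_FSTKO, a ratio of 0.627 (0.465 to 0.827), and at 23.8 and 9.96 CPM in KPCA_FSTKO_hFSTL3, a ratio of 0.419 (0.249 to 0.667). None of these intervals reached 1.

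With a threshold of at least 2-fold and at least 100 UMIs over the classes compared, 3 of the 7 genes were higher in stromal- than in cancer-gated cells of KPCA_FSTKO (Zeb2, Snai1 and Prrx1), where 14.9% of 13212 genes were. The same 3 of 7 passed in KPCA_FSTKO_hFSTL3, where 12.3% of genes did. In the endothelial comparison 2 of 7 were higher in KPCA_FSTKO, Zeb1 and Snai1, against 18.2% of genes, and 5 were lower, against 27.4%. Only Zeb1 had at least 100 UMIs in endothelial-gated cells of either library. The other genes that passed the limit did so through the cancer-gated class. In KPCA_FSTKO, Snai1 had 10 endothelial-gated UMIs, Zeb2 18, and Snai2, Twist1, Twist2 and Prrx1 1 to 3 each. The Snai2 interval held the cancer-gated level. In KPCA_FSTKO_hFSTL3, 2 of the 6 with enough UMIs were higher, Zeb1 and Prrx1, against 16.8% of genes, and 3 were lower, against 27.8%. In the immune comparison 5 of 7 were lower in KPCA_FSTKO (Zeb1, Snai2, Twist1, Twist2 and Prrx1), against 29.9% of genes, and the same 5 of 6 were lower in KPCA_FSTKO_hFSTL3, against 23.4%. Zeb2 was the 1 gene of the 7 that was higher in immune-gated cells, where 17.5% of all genes were in KPCA_FSTKO and 18.3% in KPCA_FSTKO_hFSTL3. The median log2 ratio over all genes in these comparisons lay between -0.354 and -0.0903.

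Prrx1 in endothelial-gated cells of KPCA_FSTKO_hFSTL3 rested on 1 barcode. That class had 8 Prrx1 UMIs (42.8 CPM), 3.78-fold (1.60 to 7.67) above cancer-gated cells, and all 8 were in 1 of the 14 barcodes. That barcode had 24536 UMIs and passed 10 endothelial, 4 mural and 3 stromal markers. In KPCA_FSTKO the 63 endothelial-gated barcodes had 3 Prrx1 UMIs in all, a ratio to cancer-gated cells of 0.306 (0.063 to 0.896). Without the 5% of barcodes richest in the gene, Prrx1 no longer passed in KPCA_FSTKO_hFSTL3 and Zeb1 alone did.

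Twist1 and Twist2 were near or at 0 in endothelial-gated cells. KPCA_FSTKO had 2 Twist1 UMIs there, a ratio to cancer-gated cells of 0.0304 (0.00368 to 0.110), and 1 Twist2 UMI. KPCA_FSTKO_hFSTL3 had none of either, which puts Twist1 at least 5.41-fold and Twist2 at least 2.66-fold below cancer-gated cells when 3 UMIs are taken as the limit of the class. Droplets also capture free RNA, and its amount was read from markers of another class. The 6 cancer markers used are gate markers, and barcodes that passed at least 4 cancer markers were left out of the other classes. The gate thus holds down their share elsewhere, and free RNA may be higher than they show. In endothelial-gated cells of KPCA_FSTKO, 6 cancer markers (Hmga2, Krt8, Krt18, Krt19, Wfdc2 and Igf2bp2) kept 2.54% to 8.16% of their cancer-gated level, while Twist1 kept 3.04% and Twist2 3.47%. In immune-gated cells the markers kept 2.73% to 9.04%, while Twist1 kept 3.0%, Twist2 3.68% and Snai2 7.60%. These shares were thus within the range of the markers. In stromal-gated cells of KPCA_FSTKO 5 of the markers kept 2.28% to 9.87%, and Igf2bp2 kept 33.7%. Twist1 with 61.8% and Snai2 with 62.7% stood above all 6, and Twist2 with 27.3% stood above 5 but below Igf2bp2. In KPCA_FSTKO_hFSTL3 Igf2bp2 kept 38.8% there, against 72.5% for Twist1, 41.9% for Snai2 and 20.9% for Twist2.

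The opposite direction was read from stromal and macrophage genes. The stromal markers used and Tyrobp are gate markers too, so the limit given above holds for them as well. Cancer-gated cells of KPCA_FSTKO held 0.137% to 0.895% of the stromal-gated level of 5 stromal markers (Col1a1, Col1a2, Dcn, Lum and Mfap5), 4.02% of that of Prrx1 and 7.80% of that of Snai1. In KPCA_FSTKO_hFSTL3 the markers were at 1.11% to 2.86%, close to Prrx1 at 3.63%, and Snai1 was at 9.35%. Against macrophage-like cells, Tyrobp, C1qa, C1qb and Mrc1 were at 0.252% to 0.870% and Zeb2 at 14.8% in KPCA_FSTKO, and in KPCA_FSTKO_hFSTL3 they were at 1.46% to 3.61% and Zeb2 at 13.3%.

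Within the classes, cells were divided by lists of 8 markers, of which at least 3 had to be found. Among stromal-gated cells of KPCA_FSTKO this gave 88 fibroblast-like, 92 myofibroblast-like, 28 mural-like (pericytes and vascular smooth muscle) and 6 mesothelial-like cells, and 195 stayed unassigned. Among immune-gated cells it gave 794 macrophage-like, 80 neutrophil-like, 56 T/NK-like, 15 dendritic-like and 4 B-like cells, and 72 stayed unassigned, with mast cell proteases such as Mcpt2 and Cma1 among their leading genes. A further 35 passed the monocyte list, but Siglech and Ccr9, known from plasmacytoid dendritic cells, were among their leading genes, and they are called by that list and not named. The corresponding KPCA_FSTKO_hFSTL3 groups were small, with 14 fibroblast-like, 29 myofibroblast-like, 7 mural-like, 142 macrophage-like and 10 T/NK-like cells.

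**Figure D2:**
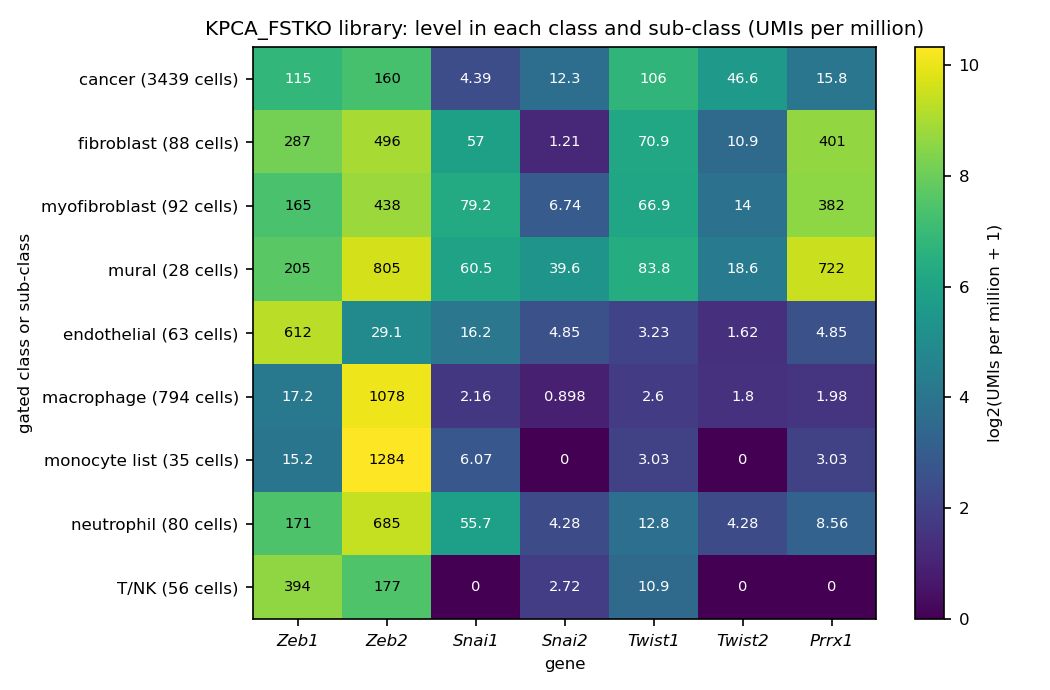
Level of each gene (columns) in the gated classes and sub-classes of KPCA_FSTKO with at least 20 cells (rows), printed as CPM and colored by log2(CPM + 1). The Zeb1 column is highest in the endothelial row (612.5) and the Zeb2 column in the monocyte-list (1284) and macrophage (1078) rows, and the mural row has the highest Prrx1 (721.6).

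The Zeb genes changed places among immune cells. Macrophage-like cells of KPCA_FSTKO had 17.2 CPM of Zeb1 (14.8 to 19.8) and 1078 of Zeb2 (1059 to 1098), while T/NK-like cells had 393.8 CPM of Zeb1 (332.3 to 463.3) and 176.5 of Zeb2 (136.2 to 225.0). Zeb1 was thus 23.0-fold (18.4 to 28.6) higher in T/NK-like than in macrophage-like cells, and Zeb2 6.11-fold lower. In KPCA_FSTKO_hFSTL3 the T/NK-like level of Zeb1 was 12.5-fold (7.01 to 21.6) above and that of Zeb2 11.6-fold below the macrophage-like level. The 15 dendritic-like cells of KPCA_FSTKO, led by Xcr1 and Clec9a of cross-presenting dendritic cells, had 154.2 CPM of Zeb1 and 43.4 of Zeb2, above and below the macrophage-like levels. Neutrophil-like cells, with a median depth of 2788.5 UMIs, had 171.3 CPM of Zeb1 and 685.2 of Zeb2.

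In the order of levels in KPCA_FSTKO, Zeb1 went from endothelial-gated through T/NK-like and fibroblast-like to mural-like cells, each apart from the next, then neutrophil-like and myofibroblast-like cells, which counting error did not set apart from mural-like cells or from each other, then cancer-gated cells at 114.7 CPM. Macrophage-like and monocyte-list cells came last and were not apart from each other. For Zeb2 the order was monocyte-list, macrophage-like, mural-like and neutrophil-like (these not apart), fibroblast-like, myofibroblast-like, T/NK-like and cancer-gated (not apart), and endothelial-gated cells. The class with the most Zeb1 was therefore the class with the least Zeb2.

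Mural-like cells held the most Prrx1, 721.6 CPM (643.5 to 806.5) against 401.1 in fibroblast-like and 382.1 in myofibroblast-like cells of KPCA_FSTKO. The mural-to-fibroblast ratio was 1.80 (1.57 to 2.06) in KPCA_FSTKO and 2.65 (1.94 to 3.64) in KPCA_FSTKO_hFSTL3, the latter over 7 and 14 cells. Zeb2 was also higher in mural-like cells, at 1.62 (1.43 to 1.84) and 2.35 (1.86 to 2.99) times the fibroblast-like level. Snai1 stood at 79.2 CPM in myofibroblast-like, 60.5 in mural-like and 57.0 in fibroblast-like cells. The myofibroblast-to-fibroblast ratio was 1.39 (1.06 to 1.83) in KPCA_FSTKO and 1.89 (1.02 to 3.84) in KPCA_FSTKO_hFSTL3, while mural-like cells were not apart from either neighbour in KPCA_FSTKO. Snai1 in neutrophil-like cells was at 55.7 CPM from 13 UMIs, not apart from fibroblast-like cells. Snai2 in mural-like cells came to 39.6 CPM from 17 UMIs (23.0 to 63.4), above the 12.3 of cancer-gated cells in KPCA_FSTKO. In KPCA_FSTKO_hFSTL3 it had 3 UMIs there, 18.0 CPM (3.72 to 52.8), against 23.8 in cancer-gated cells.

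Twist1 stood at 83.8 CPM in mural-like (58.7 to 116.0), 70.9 in fibroblast-like (58.6 to 85.0) and 66.9 in myofibroblast-like cells (55.4 to 80.0) of KPCA_FSTKO. The fibroblast-like and myofibroblast-like intervals lay below that of cancer-gated cells (104.5 to 108.5), and the mural-like interval held the cancer-gated level. Neutrophil-like cells came next at 12.8 CPM, apart from myofibroblast-like cells. For Twist2 cancer-gated cells at 46.6 CPM were apart from mural-like cells at 18.6 CPM, and the 3 stromal groups were not apart from each other. Twist1, Twist2 and Prrx1 had 4, 0 and 0 UMIs in all 56 T/NK-like cells of KPCA_FSTKO.

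The balance within each gene pair gave a measure that does not depend on the depth of a class. It is the share of the pair's UMIs that came from the second gene, and it can be compared across classes but not read as a ratio of molecules, since the pair's genes differ in length. Zeb2 made up 58.2% (57.7 to 58.8) of Zeb UMIs in cancer-gated, 68.8% (67.5 to 70.2) in stromal-gated, 4.53% (2.71 to 7.07) in endothelial-gated and 96.3% (96.0 to 96.7) in immune-gated cells of KPCA_FSTKO. The KPCA_FSTKO_hFSTL3 values were 52.0%, 73.2%, 4.30% and 97.5%. Within immune-gated cells of KPCA_FSTKO the share was 98.4% in macrophage-like, 80.0% in neutrophil-like, 31.0% (24.8 to 37.7) in T/NK-like and 22.0% (10.6 to 37.6) in dendritic-like cells, and T/NK-like cells of KPCA_FSTKO_hFSTL3 also gave 31.0% (15.3 to 50.8).

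Snai2 made up 73.7% (71.5 to 75.7) of Snai1 and Snai2 UMIs in cancer-gated cells of KPCA_FSTKO and 12.04% (9.12 to 15.5) in stromal-gated cells, and 79.4% and 13.1% in KPCA_FSTKO_hFSTL3. In KPCA_FSTKO fibroblast-like cells had 2.08% (0.253 to 7.32), myofibroblast-like cells 7.84% and mural-like cells 39.5% (25.0 to 55.6). In KPCA_FSTKO_hFSTL3, over 17 and 7 UMIs, fibroblast-like cells had 29.4% (10.3 to 56.0) and mural-like cells 42.9% (9.90 to 81.6), and the intervals overlapped. Twist2 made up 30.4% of Twist UMIs in cancer-gated and 16.2% in stromal-gated cells of KPCA_FSTKO, and 33.0% and 12.4% in KPCA_FSTKO_hFSTL3. In all 3 pairs the cancer and stromal intervals did not overlap, in either library.

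**Figure D3:**
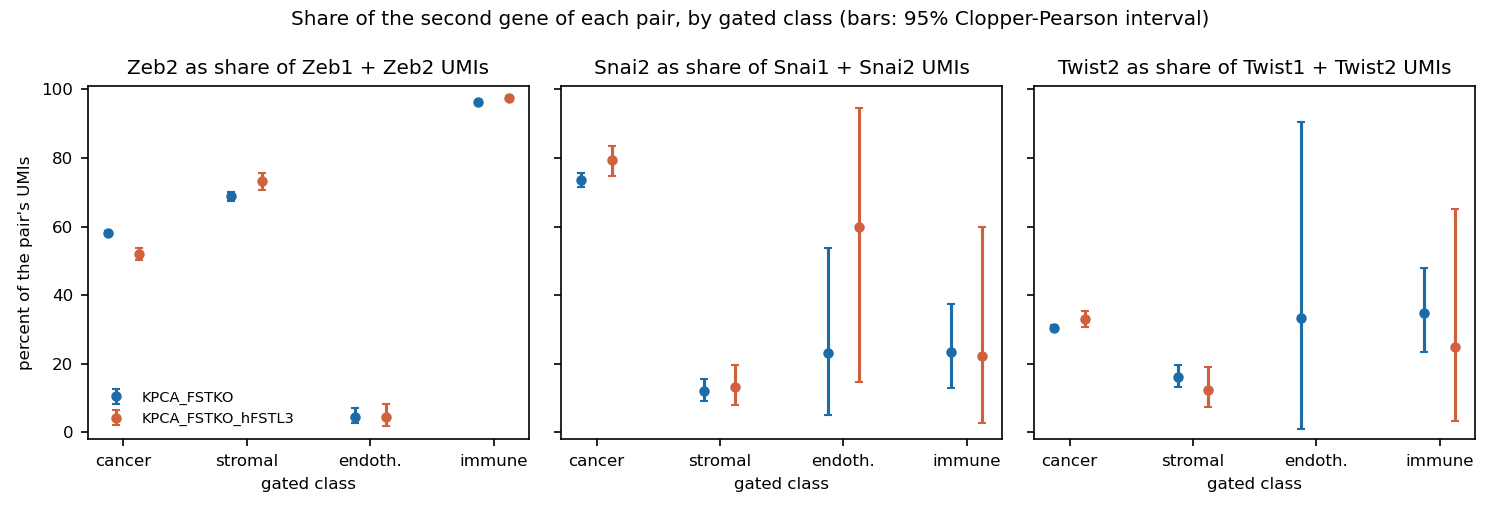
Share of the second gene among the UMIs of each pair (percent), in the 4 gated classes of both libraries, with 95% Clopper-Pearson intervals. Zeb2 goes from 4.53% in endothelial- to 96.3% in immune-gated cells of KPCA_FSTKO, and Snai2 from 73.7% in cancer- to 12.04% in stromal-gated cells. Wide bars mark classes with few UMIs of a pair.

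The share of cells with at least 1 UMI followed depth as well as level, so cells were thinned to 5000 UMIs each, which left out 152 cancer-, 38 stromal-, 27 endothelial- and 174 immune-gated cells of KPCA_FSTKO with fewer. Zeb1 was then found in 38.0% of cancer-, 48.2% of stromal-, 94.4% of endothelial- and 13.04% of immune-gated cells, against 75.9%, 76.3%, 81.0% and 24.7% without thinning. Zeb2 was found in 51.0%, 78.7%, 11.1% and 92.0% of thinned cells, against 85.9%, 93.2%, 19.0% and 89.0%. Prrx1 was found in 69.0% of thinned stromal-gated cells but in 8.21% of cancer-, 2.78% of endothelial- and 1.02% of immune-gated cells. Twist1 was found in 37.7% of thinned cancer-gated, 21.8% of stromal-gated and 1.59% of immune-gated cells, and in 0 of 36 endothelial-gated cells (upper Clopper-Pearson limit 9.74%). In these last 2 classes Twist1 kept a share of its cancer-gated level within the range of the cancer markers.

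Cells differed in how many of the 7 genes they showed. After thinning, cancer-gated cells of KPCA_FSTKO had a mean of 1.63 of the 7, stromal-gated cells 2.51, endothelial-gated cells 1.17 and immune-gated cells 1.10. At least 3 were found together in 20.9% of cancer-gated, 52.0% of stromal-gated and 0.567% of immune-gated cells. Mural-like cells had a mean of 3.26, and all 27 of them had at least 2. In KPCA_FSTKO_hFSTL3 the means were 1.54, 2.21, 1.5 and 1.06 for the 4 classes in the same order. Stromal-gated cells thus had the highest mean of the 4 classes in both libraries.

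Whether 2 of the genes shared cells more often than their separate shares give was described within 10 bins of depth per class. Genes found in most cells of a class leave little room for such an excess. In cancer-gated cells of KPCA_FSTKO only 3 of the 21 pairs could have reached 1.5 times the number given by the separate shares (Snai1 with Snai2, Snai1 with Prrx1 and Snai2 with Prrx1), and the threshold says nothing of the other 18. None of the 21 reached it, with ratios of 1.08, 1.33 and 1.14 for those 3. Over all pairs the ratios ran from 0.999 to 1.33 with a median of 1.04. The highest was that of Snai1 with Prrx1, found together in 141 cells where the separate shares give 105.9. In stromal-gated cells 6 of 21 pairs could have reached 1.5 times and none did, and the ratios ran from 0.733 for Snai1 with Twist2, 19 cells against 25.9, to 1.12 for Snai1 with Snai2, 17 against 15.1. Ratios of 20 pairs in cancer-gated and 15 in stromal-gated cells of KPCA_FSTKO were above 1. In KPCA_FSTKO_hFSTL3 they ran from 0.923 to 1.23 in cancer-gated and from 0.871 to 1.13 in stromal-gated cells, where 6 and 0 of the 21 pairs could have reached 1.5 times. No p is given, since cells of 1 library are not replicates.

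**Figure D4:**
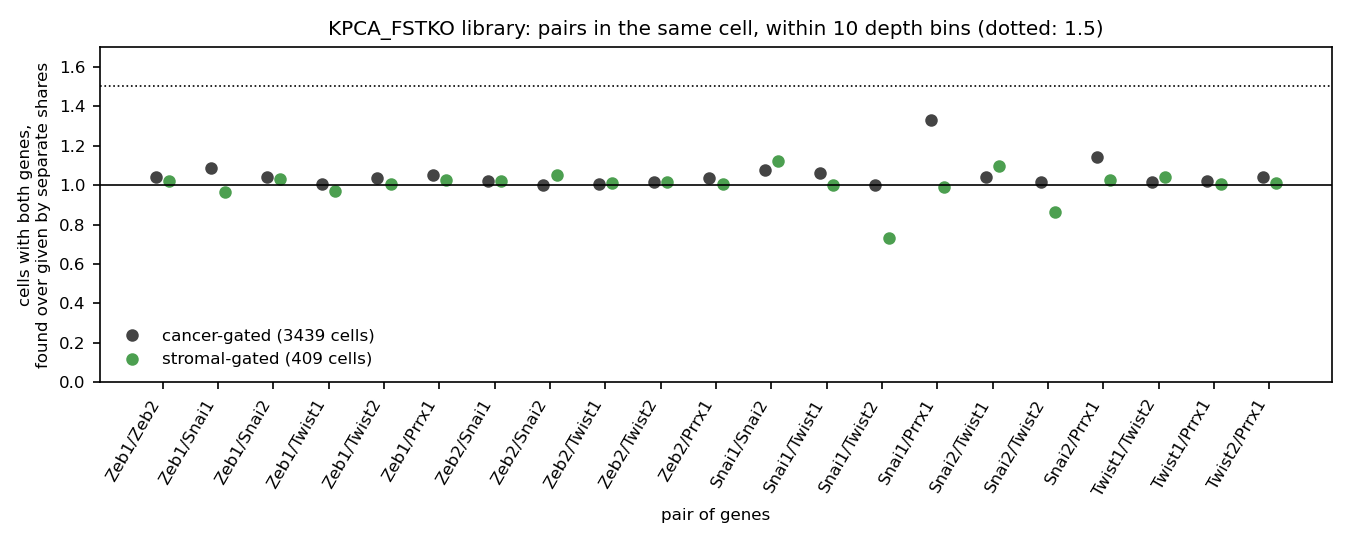
Cells with both genes of each of the 21 pairs, found over the number given by the separate shares within 10 depth bins, in cancer-gated (3439 cells) and stromal-gated cells (409 cells) of KPCA_FSTKO. All points lie below the dotted line at 1.5, which 3 cancer-gated and 6 stromal-gated pairs could have reached, and Snai1 with Prrx1 in cancer-gated cells is the highest at 1.33.

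Inside the cancer-gated class of KPCA_FSTKO, the 36 cells with at least 2 UMIs of the epithelial adhesion gene Epcam had less of the 7 genes than the 3373 with none. Zeb1 stood at 35.5 against 116.0 CPM, a ratio of 0.306 (0.221 to 0.412), and Zeb2 at 56.9 against 161.4 CPM, a ratio of 0.353. Twist1 stood at 37.1 against 107.5 CPM, a ratio of 0.345, and Twist2 at 22.3 against 47.0 CPM, a ratio of 0.474 (0.312 to 0.690). Snai1 and Snai2 had no UMI in the 36 cells, which puts them at least 1.79-fold and 5.06-fold lower at a limit of 3 UMIs over the group, and Prrx1 had 3 UMIs, a ratio of 0.154 (0.0318 to 0.452). All 7 values lay below those of cells without Epcam. The 30 cells with exactly 1 Epcam UMI had 79.7 CPM of Zeb1 (62.9 to 99.7) and 142.9 of Zeb2 (120.1 to 168.8), and Snai1 at 7.25 CPM (2.91 to 14.9) was not below the 4.42 of cells without Epcam.

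The same 36 cells had more of other epithelial genes. Cdh1 stood at 250.7 against 34.4 CPM, and the keratins Krt8 and Krt18 stood at 2413 against 796.2 and 2020 against 922.6 CPM. Vim, the mesenchymal intermediate filament gene, was lower at 1966 against 3307 CPM. Hmga2, a marker of the grafted cells, stood at 1415 against 1699 CPM, and Cdh11 was at 0. None of the 36 was called a doublet, and their median depth was 35206.5 against 28046 UMIs. Epcam could not be used in this way in KPCA_FSTKO_hFSTL3, where cancer-gated cells had 1 Epcam UMI in all.

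The split by Cdh1 gave smaller differences and did not have the same direction in both libraries. In KPCA_FSTKO, 866 cancer-gated cells had at least 2 Cdh1 UMIs and 1956 had none. Snai1 had the lowest ratio between them, 0.390 (0.299 to 0.503), followed by Snai2 at 0.699, Zeb1 at 0.728 (0.698 to 0.759), Prrx1 at 0.740, Zeb2 at 0.779 and Twist1 at 0.866, while Twist2 at 0.999 did not differ beyond counting error. Within bins of depth the ratios were 0.456 for Snai1, 0.767 for Zeb1 and 0.829 for Zeb2. In KPCA_FSTKO_hFSTL3, with 66 cells against 370, Zeb1 gave 1.39 (1.24 to 1.56) and Zeb2 1.21 (1.09 to 1.35). Snai2 gave 1.75 (1.32 to 2.32), Twist1 1.16 (1.01 to 1.34) and Twist2 1.31 (1.06 to 1.62). The intervals of Snai1 at 0.567 (0.285 to 1.06) and Prrx1 at 0.712 (0.443 to 1.12) held 1. There the 66 cells also had a median of 51019 UMIs against 7113, a median mitochondrial share of 3.91% against 9.15% and acinar genes at 0.0315% against 0.806%. The part of these in the result was not tested beyond depth bins, in which Zeb1 gave 1.17, Zeb2 1.34, Snai2 1.45, Twist1 1.06 and Twist2 1.10.

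**Figure D5:**
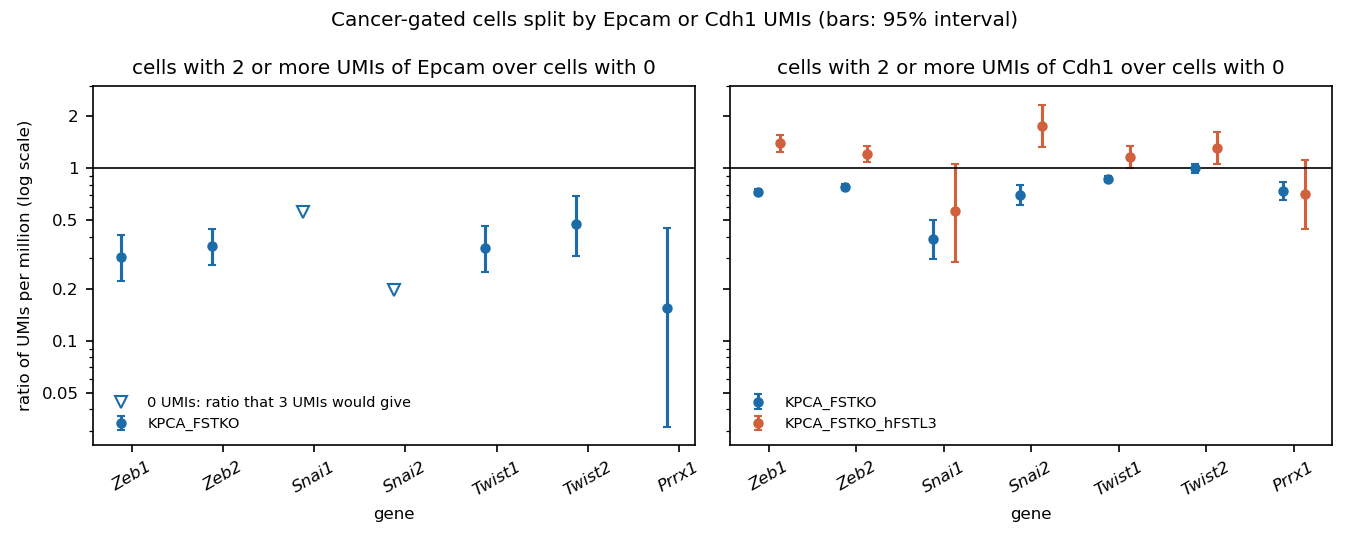
Ratio of the level of each gene (log scale) in cancer-gated cells with 2 or more UMIs of Epcam (left, KPCA_FSTKO) or Cdh1 (right, both libraries) over cells with 0, with 95% intervals and open triangles for the ratio that 3 UMIs would give where none was counted. All 7 points of the Epcam panel lie below 1. In the Cdh1 panel Zeb1, Zeb2, Snai2 and Twist1 lie below 1 in KPCA_FSTKO and above 1 in KPCA_FSTKO_hFSTL3.

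Cells with at least 2 UMIs of the proliferation gene Mki67 were set against those with none in the same way, 744 against 2347 in KPCA_FSTKO. Zeb1 (0.808), Zeb2 (0.801) and Snai1 (0.566, 0.439 to 0.722) were lower in the Mki67 cells, Snai2 was higher at 1.33 (1.18 to 1.5), and Twist1 at 1.03, Twist2 at 1.03 and Prrx1 at 0.967 did not differ beyond counting error. In KPCA_FSTKO_hFSTL3, 75 cells against 357, Snai2 was lower at 0.610 (0.439 to 0.833). Zeb2 at 0.686 (0.607 to 0.773) and Snai1 at 0.442 (0.201 to 0.878) were lower there too. Twist1 was at 1.16 (1.001 to 1.33), while Zeb1 at 0.982, Twist2 at 1.11 and Prrx1 at 0.799 did not differ beyond counting error. The Mki67 cells were also deeper, with medians of 37831.5 against 25555 UMIs in KPCA_FSTKO and 44811 against 8307 in KPCA_FSTKO_hFSTL3. Within bins of depth, KPCA_FSTKO gave 0.861 for Zeb1, 0.859 for Zeb2, 0.637 for Snai1 and 1.36 for Snai2. KPCA_FSTKO_hFSTL3 gave 0.863 for Zeb1, 0.686 for Zeb2, 0.448 for Snai1, 0.535 for Snai2 and 1.09 for Twist1.

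Of 14 known targets and readouts of these factors, all had enough UMIs in the stromal comparison of KPCA_FSTKO, and 3 were at least 2-fold higher and 6 at least 2-fold lower than in cancer-gated cells, with a median log2 ratio of -0.367. Over all genes 14.9% were higher and 17.8% lower, at a median of -0.15. The higher genes were Cdh11, the mesenchymal cadherin (449.1 against 1.16 CPM), and the matrix genes Sparc (ratio 21.01) and Tnc (ratio 16.5). The lower genes were Cdh1 (2.52 against 37.3 CPM, ratio 0.0676), Epcam (0.593 against 5.58 CPM) and 4 genes of cell junctions and polarity: Crb3 (0.148 against 4.05 CPM), Cldn4 (0.148 against 1.86 CPM), Cldn7 (0 UMIs against 1.65 CPM) and Ocln (0.296 against 0.987 CPM, ratio 0.300, 0.0359 to 1.11). The 4 junction and polarity genes rest on 0 to 2 UMIs each in stromal-gated cells. In KPCA_FSTKO_hFSTL3 only 7 of the 14 had enough UMIs, with 3 higher and 1 lower and a median log2 ratio of 0.843. Over all genes there 12.3% were higher and 12.1% lower, at a median of -0.0903.

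The windows below are shown because Snai and Zeb proteins are known to bind the E-box CAGGTG. The letters CAGGTG and CACCTG, which are reverse complements and so the same E-box on either strand, were searched in the 250 bases before each annotated start in the RefSeq promoter table of GRCm38.p6. Of the 14 targets 10 had an entry, and 6 of these held at least 1 match (Epcam, Ocln, Cldn4, Cldn7, Crb3 and Itgb6), while Vim, Cldn3, Sparc and Tnc held none. A match was held by 19.4% of all genes with an entry and by 17.2% of all 32851 windows. Each line is read 5′ to 3′ along the gene with the E-box in capitals.
Epcam (chr17:87635782-87635807, plus strand): cagtagggccCACCTGctggaggacc
Epcam (chr17:87635950-87635975, plus strand): ccataaaaccCAGGTGtggaggagaa
Ocln (chr13:100552696-100552721, minus strand): atcggagtttCAGGTGaatgggtcac
Ocln (chr13:100552551-100552576, minus strand): aggggctcggCAGGTGggtcccagcg
Cldn4 (chr5:134946935-134946958, minus strand): ttaactgcagCACCTGtggccgcc
Cldn7 (chr11:69965314-69965339, plus strand): tcttcctcttCACCTGgacgaggagg
Cldn7 (chr11:69965354-69965379, plus strand): acttccggttCAGGTGagtgtccctt
Crb3 (chr17:57062073-57062098, plus strand): cctgtgcttaCACCTGctcatttccg
Crb3 (chr17:57062128-57062153, plus strand): gttcccgttaCAGGTGctctggcggc
Crb3 (chr17:57062184-57062209, plus strand): cagccaggctCAGGTGcacaagccgg
Itgb6 (chr2:60673738-60673763, minus strand): gggcactgtaCACCTGacttccttat
Itgb6, an epithelial integrin subunit, did not differ between stromal- and cancer-gated cells beyond counting error (ratio 1.31, 0.636 to 2.42). The interval of Ocln given above also held 1. The files hold no binding data, and a match is a description of letters and not a bound site. Whether the factors act on these genes here was not tested.

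Of 12 epithelial regulators that oppose EMT, 5 had enough UMIs in the stromal comparison of KPCA_FSTKO, with 0 higher and 3 lower, where 14.9% and 17.8% of all genes were, at a median log2 ratio of -2.91. The lower ones were the epithelial factors Klf5 (17.3 against 130.6 CPM), Ehf (1.93 against 42.5 CPM) and Elf3 (0.593 against 8.92 CPM). Whether they shared single cells with Twist1 or Zeb1 was not examined. Klf4 stood at 145.2 CPM in stromal- and 74.9 in cancer-gated cells, a ratio of 1.94, and at 3.35 in KPCA_FSTKO_hFSTL3. In immune-gated cells of KPCA_FSTKO 1 was higher, Klf4 (288.0 CPM), and 4 were lower, where 17.5% and 29.9% of all genes were.

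Of 17 partners and relatives, 12 had enough UMIs in the stromal comparison of KPCA_FSTKO, with 4 higher and 3 lower, where 14.9% and 17.8% of all genes were. Tcf4, an E protein that dimerizes with the Twist proteins, stood at 513.5 CPM in stromal-, 196.3 in cancer- and 2867 in endothelial-gated cells, an endothelial-to-cancer ratio of 14.6 (13.9 to 15.3). Id3, an inhibitor of such dimers, stood at 435.0, 26.4 and 242.4 CPM in the same classes, while Id1 (20.7 against 73.6 CPM) and Id2 (21.5 against 85.1 CPM) were lower in stromal- than in cancer-gated cells. Id4 and Hand2, a mesenchymal bHLH factor with 106 UMIs against 0, were the other higher genes and Foxc1 the other lower one. Prrx2, the relative of Prrx1, did not have its stromal pattern in KPCA_FSTKO, with 38.5 against 45.2 CPM, and in KPCA_FSTKO_hFSTL3 it stood at 47.2 against 7.92 CPM.

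Between the libraries, stromal-gated cells had 0 of 6 of these factors at least 2-fold apart, where 3.78% of all genes were. Prrx1 was at 0.790 (0.721 to 0.863) in KPCA_FSTKO_hFSTL3 relative to KPCA_FSTKO and Zeb1 at 0.847 (0.750 to 0.954), while Zeb2 at 1.05 (0.971 to 1.12) and Snai1 at 1.17 (0.952 to 1.44) had intervals that held 1. Immune-gated cells had 0 of 2 apart, against 3.51% of genes, with Zeb1 at 0.733 (0.576 to 0.925) and Zeb2 at 1.11 (1.06 to 1.15). Endothelial-gated cells had 0 of 1 apart, against 5.27% of genes, with Zeb1 at 1.55 (1.29 to 1.86). There 1 of the 14 barcodes of KPCA_FSTKO_hFSTL3 held 57 of the 178 Zeb1 UMIs, and without it, an alternative chosen after seeing the data, the ratio between libraries was 1.32 (1.07 to 1.62) and that to cancer-gated cells was 5.73 (4.72 to 6.89). The tumors of each library were pooled, so that the genotype and the library cannot be told apart.

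The genes with the most similar profiles were sought over the 12 classes and sub-classes of both libraries with at least 20 cells, by Pearson's r of log2(CPM + 1) across 14064 genes without the gate markers. These profiles share libraries and cells of related classes. Twist1 was most like Pcolce (0.991), Pard3 (0.985) and Steap2 (0.968), Twist2 was most like Arpc1a (0.967), H1fx (0.95) and Hs2st1 (0.935), and Prrx1 was most like Nfatc4 (0.981), Cd248 (0.976) and Col5a3 (0.963). Zeb1 was most like Spin1 (0.945), Ash1l (0.943) and Chst2 (0.933), and Zeb2 was most like Adora2b (0.94), Arhgap24 (0.93) and Gm2a (0.928). Snai1 was most like Snx33 (0.929), Mgll (0.928) and Mdk (0.923), and Snai2 was most like Tfcp2 (0.934), Ajuba (0.916) and Yaf2 (0.908). Among the 7 genes themselves, Twist1 with Twist2 gave 0.889, Snai1 with Prrx1 gave 0.860 and Zeb1 with Zeb2 gave -0.714.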

How the data were processed

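The series holds 2 single-cell RNA libraries (10x Genomics, 3′), each from 4 pooled omental tumors. The authors deposited whole-number UMI counts per gene and barcode, made with Cell Ranger against mm10 (reference 2020-A). The labels name version 3.1.0 and the file header 7.2.0, and the version 7 default of counting introns, which adds most to long genes such as Zeb1 and Zeb2, could not be checked from the matrices. The deposited counts were not filtered as the study's methods describe, so the mitochondrial and gene limits were applied here. The 7 genes and all lists were chosen with earlier results of these data known. The named genes were the 7 factors, the 3 genes most like each, and up to 4 values from each of 3 fixed lists of EMT regulators, partners and targets. The markers were set before the matrices were read, but the scoring rule of the gates (at least 4 of 12 markers of 1 class alone, at least 2 UMIs each, and at least 3 of 8 for a sub-class) was set after seeing them. Doublets were called with Scrublet in scanpy 1.11.5 (90 and 1 barcodes) and kept. Since 1 call in 4041 has not worked, the alternative took out the top 10% of scores, 540 barcodes, in KPCA_FSTKO_hFSTL3. Counts were summed per class, with exact Poisson intervals for levels, conditional binomial intervals for ratios and Clopper-Pearson intervals for shares. UMIs are taken as independent molecules, and free RNA is not removed. With 1 library per genotype no test was run, and the scripts were tested on simulated data. Total depth was 168214773 and 80391504 UMIs. The tools were scipy 1.17.1, numpy 2.4.6 and pandas 2.3.3 under Python 3.11.15, with edgeR 4.0.16 in R 4.3.3 for TMM factors as a scaling alternative. Sequences came from RefSeq GRCm38.p6.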

Additional observations from a re-analysis of the deposited data

Results flagged for a closer look

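Some results had opposite directions in the libraries, each by more than counting error; the difference between the libraries was not tested. Prrx1 in endothelial- relative to cancer-gated cells was at 0.306 in KPCA_FSTKO and 3.78 in KPCA_FSTKO_hFSTL3, where 1 barcode held all 8 UMIs. In cancer-gated cells with at least 2 Cdh1 UMIs relative to those with none, Zeb1 was at 0.728 in KPCA_FSTKO and 1.39 in KPCA_FSTKO_hFSTL3, and Zeb2 was at 0.779 and 1.21. Snai2 was at 0.699 and 1.75 and Twist1 at 0.866 and 1.16 in the same comparison. In cancer-gated cells with at least 2 Mki67 UMIs relative to those with none, Snai2 was at 1.33 in KPCA_FSTKO and 0.610 in KPCA_FSTKO_hFSTL3. With 1 library per genotype, library and genotype cannot be told apart in any of these.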

How the results depend on the processing

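Of 102 alternative counts of genes or pairs past a threshold, 92 stayed within 1.5 times the value given and 10 moved. With barcodes of several lists put into the class with the largest share of its list, the immune count lower in KPCA_FSTKO_hFSTL3 went from 5 to 0, the count apart between libraries from 0 to 2 in stromal- and from 0 to 6 in immune-gated cells, and 1 stromal pair passed (Snai2 with Twist2). In the same setting the endothelial-to-cancer log2 ratio in KPCA_FSTKO reversed for Zeb2, from -2.46 to 0.13, and for Prrx1, from -1.71 to 2.26. The stromal-to-cancer log2 ratio in KPCA_FSTKO_hFSTL3 fell there for Zeb2 from 1.68 to 0.774, for Snai1 from 3.42 to 1.76 and for Prrx1 from 4.78 to 2.73. Those of Snai2 and Twist2 rose from -1.25 to -0.417 and from -2.26 to -0.604. The endothelial count higher in KPCA_FSTKO_hFSTL3 was 1 in place of 2 without the 5% of barcodes with most UMIs of the gene, without barcodes with acinar genes above 0.1%, as a mean over cells, and, an alternative chosen after seeing the data, with at most 1 marker of every other class. At 1.5-fold in place of 2-fold, 1 gene, Zeb1, was apart between libraries in endothelial-gated cells. With cells thinned to 5000 UMIs in place of depth bins, 1 cancer pair passed, Snai1 with Prrx1 (9 cells against 5.42). The cause of these moves was not tested. Of 381 alternative class ratios, 300 stayed within the counting interval of the value given, 79 moved and 2 reversed. Reversal was counted only where the ratio given was at least 2-fold, so smaller ratios that changed sign count as moved or stayed. The immune-to-cancer log2 ratio of Snai1 in KPCA_FSTKO, -0.533, was 0.256 as a mean over cells and counts as moved. Of 56 shares recomputed at 1000 UMIs, 14 stayed and 42 moved, and the class with the highest share was the same in 13 of 14. The exception was Snai2 in KPCA_FSTKO, highest in endothelial-gated cells at 5000 UMIs and in cancer-gated cells at 1000. No paired analysis was possible because there is 1 library per genotype. Endothelial-gated values rest on 416 UMIs of the 7 genes in KPCA_FSTKO and 199 in KPCA_FSTKO_hFSTL3, which limits all members but Zeb1 there.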

Other observations

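Barcodes over the thresholds of several classes were left out above and held all 7 genes. In KPCA_FSTKO, 330 barcodes passed the cancer and stromal lists alone, 5 of them called doublets. Their levels of Zeb1 (176.3 CPM), Zeb2 (243 CPM), Snai1 (16.4 CPM) and Prrx1 (88.5 CPM) lay above those of cancer-gated cells. Zeb1, Zeb2, Prrx1 and Snai1 there lay between the cancer-gated and stromal-gated levels. Snai2 and Twist2 lay above both. Snai2 stood at 21.8 CPM (19.1 to 24.7), against 12.3 in cancer-gated cells, the higher of the classes. Twist2 stood at 53.1 CPM (48.8 to 57.5), against 46.6 in cancer-gated cells, again the higher. For Twist1, at 102.2 CPM, the interval (96.3 to 108.4) held the cancer-gated 106.5. The stromal-to-cancer ratios above leave these barcodes out, and what they are was not tested. In KPCA_FSTKO_hFSTL3, 1747 barcodes passed the cancer, stromal and immune lists together, 464 of them among the top 10% of doublet scores. They held 56.4 CPM of Zeb1, 153.8 of Zeb2, 47.9 of Twist1 and 18.7 of Prrx1, against 141.1, 152.8, 86.8 and 11.3 CPM in cancer-gated cells of that library.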
